A study of Mus musculus with 24 samples.

Results

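The replication histone genes are the genes for the linker histone H1 and the core histones H2A, H2B, H3 and H4 that are transcribed in S phase. They were taken by name (H1f1 to H1f5, or H2ac, H2bc, H3c or H4c followed by digits), and 63 genes of the 34471 in the FPKM table carried such a name. Of these, 59 reached 10 counts in 3 or more of the 24 libraries and are described here, against 21694 genes in all that passed the same filter. H2bc1, H2bc18, H2ac19 and H2ac21 did not pass. The 59 genes were 5 of class H1, 15 of H2A, 15 of H2B, 12 of H3 and 12 of H4. The name was the only property used besides this count filter, and every gene was measured by bulk RNA sequencing of the distal jejunum, the far end of the middle small intestine.

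The study compared wild type mice with Ptk6-/- mice, in which the gene for the intracellular tyrosine kinase PTK6 is disrupted in the germline, so that every cell lacks it. Both genotypes were on a C57BL/6 background and were 9 to 11 weeks old, and the age-matched mice came from different litters of 1 colony. Within each sex and genotype, 3 mice drank control water and 3 drank water with 100 mM succinate for 7 days, which gave 8 groups and 24 libraries. Poly(A) RNA was selected with oligo(dT) beads before library preparation.

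Replication histone mRNAs are the metazoan mRNAs that do not end in a poly(A) tail. Their 3′ end is cut just after a short stem-loop that is bound by the stem-loop binding protein SLBP, and this end controls their translation and their rapid decay when DNA synthesis stops. The genes lie in clusters, and the protein products package newly copied DNA, which in the intestine is made mainly by the dividing cells of the crypts. Some of these genes can also give polyadenylated transcripts that read on past the stem-loop. The question asked of these data was how the members behaved in poly(A)-selected libraries, and whether their level moved with that of the 18S ribosomal RNA gene Rn18s-rs5, whose transcript also has no poly(A) tail.

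Ptk6 itself had 284 to 2405 counts in the 12 wild type libraries and 7 to 61 in the 12 Ptk6-/- libraries, and the groups did not overlap. Library totals were 8080321 to 52824743 counts. All 12 enterocyte markers were found in every library. In 2 libraries Rn18s-rs5 took a far larger share of the counts than in the rest, 51.2% in male wild type control replicate 1 and 29.7% in male Ptk6-/- succinate replicate 1 (the library of 8080321 counts), against 0.108% to 4.49% in the other 22. Female wild type succinate replicate 2 held 24697 CPM (counts scaled to a common library size) of heart muscle markers, against 21.4 to 263 in the other libraries. In the comparisons within a sex that these libraries enter, the edgeR median and the count of members at an unadjusted p under 0.05 are also given without them, whereas DESeq2, voom and limma on FPKM were run with all libraries only. The comparisons below share groups, since each group of 3 mice enters several of them. In bulk tissue, fewer cells of a type and less RNA per cell cannot be told apart.

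The stem-loop sequences are shown first because they define how these mRNAs end. They were read from the GENCODE transcripts of GRCm38 by their structure, 6 paired bases around a loop of 4 bases, and are printed with 5 bases on either side, the paired bases in capitals. At least 1 member of each class is given, and 2 of class H4.
H1f2: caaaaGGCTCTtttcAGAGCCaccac
H2ac18: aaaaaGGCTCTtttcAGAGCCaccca
H2bc8: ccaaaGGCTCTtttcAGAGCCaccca
H3c15: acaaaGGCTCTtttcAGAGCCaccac
H4c9: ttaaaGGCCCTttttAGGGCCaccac
H4c8: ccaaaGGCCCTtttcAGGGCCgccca
A stem-loop was found in the annotated transcripts of 39 members. The form shown for H1f2 stood in 23 of them, all of class H1, H2A, H2B or H3. All 10 H4 members with a stem-loop had other paired bases, as in H4c9 and H4c8, and no member of another class had those stems. In 21 members the annotated transcript ended 3 to 74 bases after the stem-loop, and in 18 members it ran on for 151 to 4884 bases. In 20 members the annotated transcript held none. Some of these transcripts are short, such as H2ac13 (393 bases), H2bc13 (381) and H4c12 (312). A stem-loop beyond the annotated end would not have been found, so these members are not shown to lack one.

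The most abundant members were not among those that end at the stem-loop. H2bc4, an H2B gene at chr13:23868182-23876891 on the plus strand (GRCm39, as deposited, like every member position below), had a mean of 99.6 FPKM over the 24 libraries. Its spliced annotated transcript held no stem-loop. H1f2, a linker histone gene at chr13:23922791-23924350 on the plus strand, had 47.2 FPKM, and its annotated transcript ran on for 840 bases past the stem-loop. H2bc8, another H2B gene, at chr13:23755570-23756187 on the plus strand, had 28.8 FPKM and 155 bases past the stem-loop. These 3 genes took 44.2%, 28.5% and 6.83% of all counts of the 59 members. The other 56 members had mean levels of 0.193 to 7.14 FPKM. FPKM is the fragment count scaled by transcript length and library size, and levels of different genes are compared on that scale only.

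The members lie in 2 clusters, 52 of them on chromosome 13 between 21899933 and 23948389, and 7 on chromosome 3 between 96127677 and 96176457. Promoter sequence (RefSeq, GRCm38.p6, 250 bases before the start) was matched for 52 members, and not for H2ac14, H2bc4, H2bc21, H2bc24, H3c1, H3c7 or H4c14. Motifs known from histone promoters were searched on both strands, the box CCAAT, the core promoter element TATAAA and the octamer element TTTGCAT. The first of these was found in 42 of the 52 members, 80.8%, against 33.9% of 32851 promoters of that length. It stood in 5 of 5 H1, 14 of 14 H2A, 12 of 12 H2B, 8 of 10 H3 and 3 of 11 H4 promoters. The element TATAAA was found in 48.1% of member promoters against 12.4% of all promoters. The octamer was found in 21.2% against 4.13%, in 5 H2A, 5 H2B and 1 H4 promoter. The promoters below are printed because H2bc8 and H1f2 are the most abundant members with an entry and H4c9 is the most abundant H4 gene. Capitals mark the motifs on either strand.
H2bc8, chr13:23571150-23571399, plus strand: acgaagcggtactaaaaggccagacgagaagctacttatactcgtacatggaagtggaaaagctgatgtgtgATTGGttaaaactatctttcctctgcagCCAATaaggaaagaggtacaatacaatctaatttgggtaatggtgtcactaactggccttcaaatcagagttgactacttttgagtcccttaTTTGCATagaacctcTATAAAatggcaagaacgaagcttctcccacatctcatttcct
H1f2, chr13:23738557-23738806, plus strand: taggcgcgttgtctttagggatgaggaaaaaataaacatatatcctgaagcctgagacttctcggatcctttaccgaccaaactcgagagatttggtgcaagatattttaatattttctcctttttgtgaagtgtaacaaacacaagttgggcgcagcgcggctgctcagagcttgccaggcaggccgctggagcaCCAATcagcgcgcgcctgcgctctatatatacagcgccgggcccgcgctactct
H4c9, chr13:22041363-22041612, minus strand: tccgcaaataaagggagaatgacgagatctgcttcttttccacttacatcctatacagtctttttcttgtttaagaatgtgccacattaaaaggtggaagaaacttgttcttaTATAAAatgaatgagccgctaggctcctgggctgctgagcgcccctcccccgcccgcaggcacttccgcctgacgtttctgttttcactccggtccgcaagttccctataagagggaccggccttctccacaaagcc
The H2bc8 promoter held all 3 motifs, H1f2 held CCAAT, and H4c9 held TATAAA only. A match is a description of the letters and not a measured binding site.

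The values below are CPM after TMM normalization, which corrects each library's size by a trimmed mean of its genes' ratios. H2bc4 encodes an H2B protein of the nucleosome core. In males it was at 168, 144 and 134 CPM in wild type controls, at 97.4, 323 and 214 in wild type succinate, at 90.5, 132 and 122 in Ptk6-/- controls, and at 132, 145 and 159 in Ptk6-/- succinate. In females it was at 195, 268 and 292 in wild type controls, at 150, 137 and 164 in wild type succinate, at 91.2, 107 and 261 in Ptk6-/- controls, and at 116, 144 and 83.6 in Ptk6-/- succinate. The widest group was male wild type succinate, and the highest group by mean was female wild type control. Female Ptk6-/- control replicate 3 stood with the wild type controls, apart from the other libraries of its group.

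H1f2 encodes the linker histone H1.2, which binds DNA between nucleosomes. Its levels in males were 109, 96.0 and 93.1 CPM in wild type controls, 70.8, 249 and 172 in wild type succinate, 54.2, 94.7 and 83.4 in Ptk6-/- controls, and 67.7, 92.8 and 93.5 in Ptk6-/- succinate. Its levels in females were 150, 162 and 157 in wild type controls, 79.6, 66.4 and 118 in wild type succinate, 60.5, 61.7 and 39.7 in Ptk6-/- controls, and 95.8, 106 and 59.4 in Ptk6-/- succinate. The female wild type controls lay close together and above every other female library. H1f2 therefore differed from H2bc4 in female Ptk6-/- control replicate 3, which had the lowest H1f2 level of all 24 libraries.

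H2bc8 encodes a further H2B protein. In males it was at 37.0, 23.2 and 24.1 CPM in wild type controls, 17.6, 47.9 and 31.8 in wild type succinate, 16.6, 22.2 and 23.5 in Ptk6-/- controls, and 15.1, 24.1 and 24.9 in Ptk6-/- succinate. In females it was at 30.8, 36.8 and 42.2 in wild type controls, 17.6, 13.98 and 26.2 in wild type succinate, 14.6, 17.1 and 40.2 in Ptk6-/- controls, and 19.04, 17.7 and 13.1 in Ptk6-/- succinate. Its order of libraries was close to that of H2bc4, with a Spearman coefficient of 0.87 over the 24 libraries, and 0.70 between H1f2 and H2bc4. These coefficients describe libraries that share their depth and normalization factor.

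**Figure D1:**
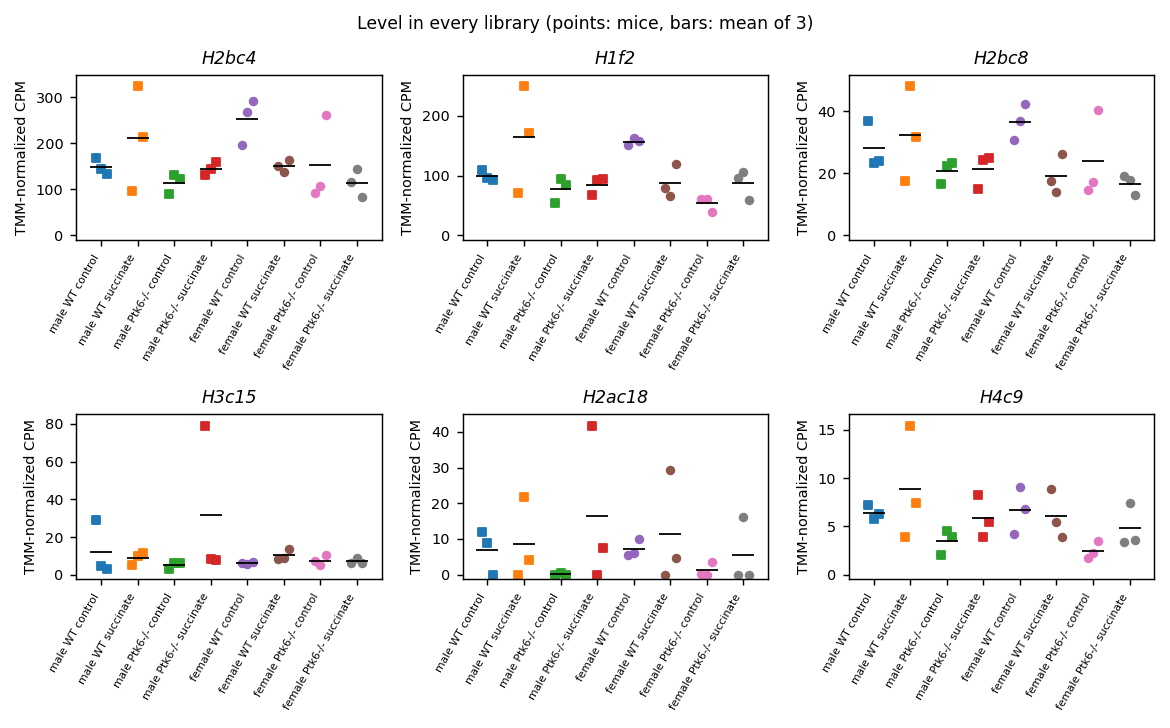
TMM-normalized CPM of 6 members (vertical axes) in the 8 groups; points are mice (squares male, circles female) and bars the mean of 3. H2bc4, H1f2 and H2bc8 have their highest value, 323, 249 and 47.9 CPM, in male wild type succinate replicate 2, whereas H3c15 and H2ac18 have their highest value, 79.0 and 41.7 CPM, in male Ptk6-/- succinate replicate 1.

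Below these 3 genes, most members of each class were low in 22 libraries and high in the same 2, and the exceptions are named with their class. Among the H1 genes, H1f4 was at 0.356 to 2.62 CPM in the 22 libraries, and at 41.9 in male wild type control replicate 1 and 55.1 in male Ptk6-/- succinate replicate 1. H1f5 was at 0.0352 to 0.978 CPM in the 22 libraries and at 16.25 and 21.9 in the other 2. H1f3 and H1f1 had the same pattern. All 4 of these linker histone genes were above each of the 22 libraries in both.

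Of the H2A genes, whose products pair with H2B, the 3 with the highest FPKM were H2ac18, H2ac10 and H2ac24. H2ac10 was at 0.477 to 4.19 CPM in the 22 libraries, and at 11.2 and 15.6 in male wild type control replicate 1 and male Ptk6-/- succinate replicate 1. H2ac24 was at 0.441 to 2.44 CPM and then at 15.9 and 20.8. H2ac14 is annotated as an unprocessed pseudogene. H2ac18 was uneven in all groups, from 0 to 29.4 CPM in the 22 libraries, and is described further on with the genes it overlaps. Of 15 H2A genes, 14 were above all 22 libraries in the first of the 2 libraries and 15 in the other.

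Among H2B genes other than H2bc4 and H2bc8, H2bc11 was at 0.932 to 2.77 CPM in the 22 libraries and at 9.62 and 8.77 in the 2 libraries rich in Rn18s-rs5. Of 13 H2B genes, 12 were above all 22 libraries in the first of these and 11 in the other. H2bc6 was at 1.69 to 5.57 CPM in the 22 libraries, at 9.95 in male wild type control replicate 1 and at 5.48 in male Ptk6-/- succinate replicate 1, inside that range. H2bc21 was in neither library above the others. It was at 3.33 to 7.21 CPM in the 22 libraries, at 4.85 in male wild type control replicate 1 and at 1.65 in male Ptk6-/- succinate replicate 1, below all the others. Its annotated transcript of 2620 bases held no stem-loop, and none of its 100-base windows was shared with another member.

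H3c15 was the H3 gene with the highest FPKM. It was at 2.88 to 13.5 CPM in the 22 libraries, at 28.9 in male wild type control replicate 1 and at 79.0 in male Ptk6-/- succinate replicate 1. H3c2 was at 0.128 to 1.91 CPM and then at 21.4 in both. H3c13 had no count in male wild type control replicate 1, although it was at 34.55 CPM in male Ptk6-/- succinate replicate 1 and at 0 to 2.76 CPM elsewhere. H3c14 was inside the range of the 22 libraries in both, at 2.83 and 1.10 CPM. Of 12 H3 genes, 10 were above all 22 libraries in male wild type control replicate 1 and 11 in male Ptk6-/- succinate replicate 1.

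Of the H4 genes, H4c9 had the highest FPKM and differed from the others of its class. It was at 1.72 to 15.4 CPM in the 22 libraries and at 7.20 and 8.22 in the 2 libraries rich in Rn18s-rs5, within that range. H4c8 was at 0.334 to 4.38 CPM and then at 26.5 and 35.6, and H4c12 at 0.220 to 0.950 and then at 12.1 and 12.3. H4c6 was the member with the largest ratio, at 0 to 0.854 CPM in the 22 libraries and at 13.4 and 15.4 in the other 2. Of 12 H4 genes, 11 were above all 22 libraries in each of the 2.

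Summed over the 56 members other than H2bc4, H1f2 and H2bc8, the level was 661 CPM in male wild type control replicate 1 and 854 CPM in male Ptk6-/- succinate replicate 1, against 33.7 to 107 CPM (median 62.1) in the other 22 libraries. H2bc4, H1f2 and H2bc8 summed to 314 and 214 CPM in the same 2 libraries, inside their range of 156 to 620 CPM elsewhere. The share of member counts held by these 3 genes was thus 32.2% and 20.1% in the 2 libraries, and 67.0% to 87.5% in the 22. In male wild type control replicate 1, 51 of the 56 members were above every one of the 22 libraries, and in male Ptk6-/- succinate replicate 1, 52 of 56. Of all 21694 genes with 10 counts in 3 libraries, 6.56% and 13.1% were. The median member of the 56 was 16.6-fold and 19.3-fold above its median over the 22 libraries (with 0.05 CPM added to both), against 0.930-fold and 0.690-fold for all genes. Part of the members' counts may be exchanged between near-identical copies, since 54 of 59 shared at least one 100-base window with another member, and 24 shared at least 50% of their windows.

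Members above all 22 libraries were found with each kind of annotated transcript end. Among the 56, they were 20 of 21 that end near the stem-loop in male wild type control replicate 1. There they were 14 of 16 that run on past it, and 17 of 19 with none annotated. In male Ptk6-/- succinate replicate 1 the counts were 21, 13 and 18 in the same order. H2bc4, H1f2 and H2bc8 do not end near the stem-loop and were above all 22 in neither. Among the 56, the median ratio in male wild type control replicate 1 was 16.9-fold for the 21 genes that end near the stem-loop, 11.7-fold for the 16 that run on past it, and 18.1-fold for the 19 with none in the annotated transcript. In male Ptk6-/- succinate replicate 1 it was 19.5-fold, 14.3-fold and 20.3-fold. By class, without H2bc4, H1f2 and H2bc8, it was 43.3-fold and 61.2-fold for H1, 15.7-fold and 19.1-fold for H2A, 9.62-fold and 4.72-fold for H2B, 24.1-fold and 43.0-fold for H3, and 21.1-fold and 27.3-fold for H4. H2B was the lowest class in both libraries. Which transcripts of each gene were present was not measured by these gene-level counts.

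**Figure D2:**
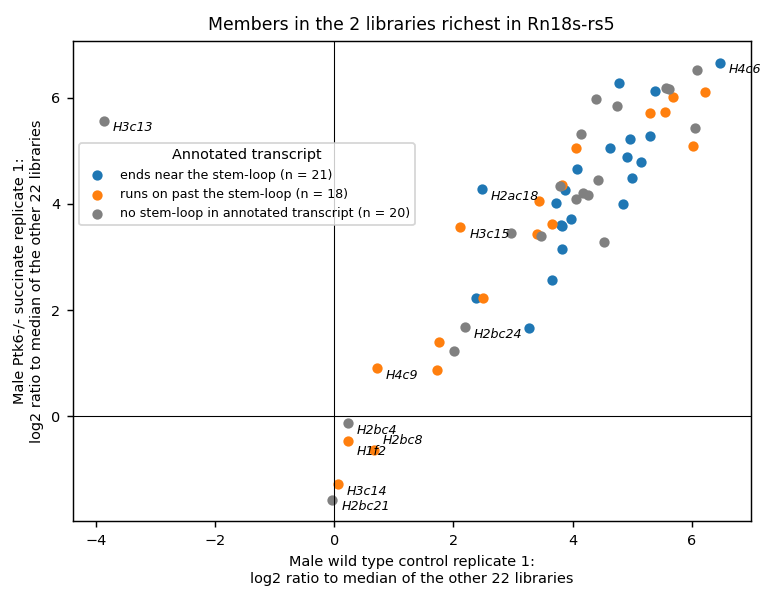
Log2 ratio of each of the 59 members to its median over 22 libraries, in male wild type control replicate 1 (horizontal axis) and male Ptk6-/- succinate replicate 1 (vertical axis), coloured by the end of the annotated transcript. Most members lie far above 0 on both axes, whereas H2bc4, H1f2, H2bc8, H3c14 and H2bc21 lie near or below 0; H3c13 had no count in the first library.

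Rn18s-rs5 was not the only other RNA raised in these 2 libraries. The list of other RNAs without a poly(A) tail, leaving out Rn18s-rs5, summed to 13380 and 7471 CPM there and to 8.13 to 784 CPM in the 22 libraries, and all 9 of its genes that passed the filter were above every one of the 22. Rn7sk, the RNA that holds the elongation factor P-TEFb inactive, was at 1.37 to 89.9 CPM in the 22 libraries and at 1869 and 884 in the other 2. Rn7s1 and Rn7s2, copies of the signal recognition particle RNA, reached 4850 and 5172 CPM in male wild type control replicate 1. Of 15 replication-independent histone genes, most of which are known for polyadenylated mRNAs (H2ax can give both kinds), 1 and 4 were above every one of the 22 libraries, and the median ratio was 0.947-fold and 1.27-fold. H3f3b was at 397 and 390 CPM in the 2 libraries and at 282 to 835 in the 22, and H1f0 at 267 and 299.7 against 249 to 457. The erythrocyte markers, of which Hbb-bs and Hba-a1 are globin genes, summed to 127 and 949.8 CPM in the 2 libraries and to 17.6 to 311 in the 22.

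Over all 24 libraries, the summed level of the 56 members and the share of Rn18s-rs5 had a Spearman coefficient of 0.71 and a Pearson coefficient of 0.81 on log10 values. Without the 2 libraries the coefficients were 0.62 and 0.59, so that the relation was also present among libraries with 0.108% to 4.49% of Rn18s-rs5. Within males the Spearman coefficient was 0.88 (12 libraries; 0.81 without the 2), and within females 0.52 (12 libraries). For H2bc4, H1f2 and H2bc8 summed, the Spearman coefficient was 0.08 over 24 libraries, 0.11 over 22, 0.50 within males (0.66 without the 2) and -0.22 within females. Gene by gene over the 22 libraries, 53 of the 56 members had a positive coefficient (median 0.51, from -0.30 for H2bc21 to 0.84 for H3c7). The coefficient was 0.17 for H2bc4, 0.18 for H1f2 and -0.04 for H2bc8. For all 59 members together, as a percent of library counts (0.0250% to 0.0679%), it was 0.14 over the 22 libraries and 0.27 over all 24. These are descriptions of libraries that share a depth and a composition, and what set the share of Rn18s-rs5 in a library was not tested.

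**Figure D3:**
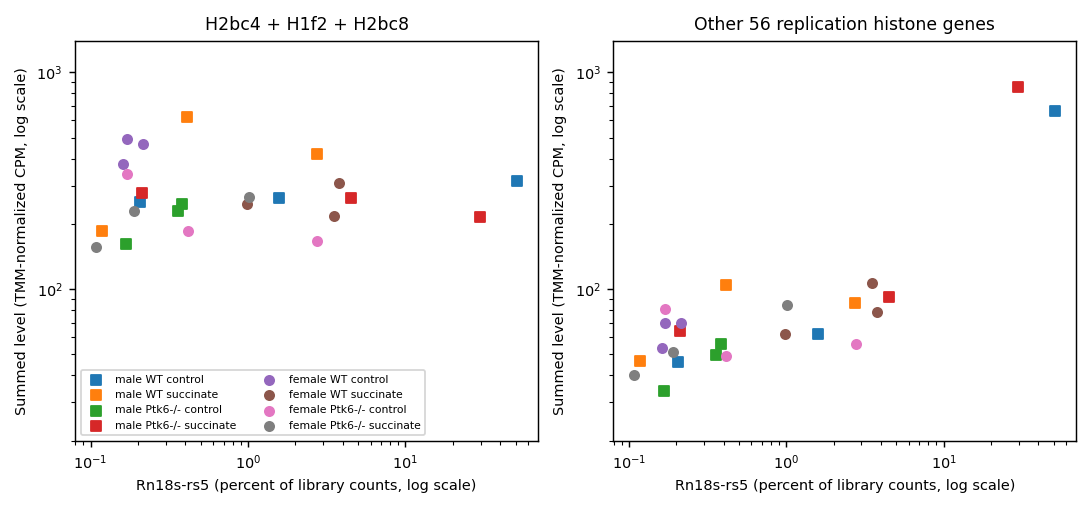
Summed TMM-normalized CPM (log axis) of H2bc4, H1f2 and H2bc8 (left) and of the other 56 members (right) against the percent of library counts from Rn18s-rs5 (log axis), 1 point per library, squares for males and circles for females. On the right the 2 libraries with most Rn18s-rs5 lie at 661 and 854 CPM and the others at 33.7 to 107; on the left these 2 lie within the range of the others.

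The summed levels of S phase and mitosis genes had negative coefficients with that of the 56 members. The DNA replication and S phase list (51 genes) summed to 776 to 1386 CPM in the 22 libraries and to 899 and 1087 in the 2 libraries rich in Rn18s-rs5. Its coefficient over 24 libraries was -0.27 with the 56 members and -0.0043 with the other 3. The G2 and mitosis list (18 genes) summed to 298 to 626 CPM, and to 469 and 438 in the 2 libraries, with coefficients of -0.57 and -0.48. Pcna, the sliding clamp of DNA polymerase, was at 41.2 to 110 CPM in the 22 libraries and at 56.2 and 23.03 in the 2. Mcm2, a subunit of the replicative helicase, was at 11.4 to 30.4, 21.6 and 26.9 CPM in the same order, and the proliferation marker Mki67 at 34.9 to 128, 108 and 132. Slbp, which encodes the stem-loop binding protein, was at 19.7 to 60.7, 24.4 and 16.2 CPM. No gene of the S phase or mitosis list was above all 22 libraries in male wild type control replicate 1, and 9 of 51 and 1 of 18 were in male Ptk6-/- succinate replicate 1 (13.1% of all genes). In that library 12 of 51 and 3 of 18 were below all 22 libraries, as were 5808 of all 21694 genes. Marker lists of other cells also moved with the 56 members, with coefficients over 24 libraries of 0.81 for heart muscle, 0.71 for erythrocytes and -0.64 for crypt stem cells, and their part in the result was not tested.

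Between control mice of the 2 genotypes, the question was whether loss of Ptk6 changed the members without succinate. In males 53 of 55 members tested had a lower fitted level in Ptk6-/- mice, with a median log2 fold change of -2.82 against 0.02 for all 19218 genes. This rested on male wild type control replicate 1: without that library the median was -0.12, and with the share of Rn18s-rs5 as a covariate it was 0.13. Rn18s-rs5 held 0.206% to 51.2% in wild type controls and 0.168% to 0.383% in Ptk6-/- controls, and its part in the result was not tested. With a call set at an adjusted p under 0.05 (Benjamini-Hochberg) and a fold change of 2, edgeR called 0 members (0.739% of all genes were called). An unadjusted p under 0.05 was found for 36 members, 65.5%, against 25.2% of all genes. DESeq2 called 6 members (1.84% of genes), voom with quality weights 1 (3.00%) and limma on log2(FPKM + 0.1) 11 (1.15%). Levels of 3 against 3 mice did not overlap for 10 members, all lower in Ptk6-/- mice, or 18.2%, near the background of 16.3% of all genes (16.4% of genes were higher). The extremes were H4c6 (-6.21, SE 1.82, edgeR adjusted p 0.0835) and H3c13 (2.88, SE 1.59, adjusted p 0.304). No Ptk6-/- control male reached 10 counts of H4c6, so it passed the filter through the wild type group alone, which favoured a decrease. H2bc4, H1f2 and H2bc8 had log2 fold changes of -0.40, -0.38 and -0.46, and of 0.040, 0.029 and 0.0089 on log2(FPKM + 1). Without male wild type control replicate 1, edgeR called 1 of 47 members, H3c14 (1.10% of genes), 2 had an unadjusted p under 0.05 (25.8% of genes), and H4c6 was too low to be tested. With all libraries, all 9 other RNAs without a poly(A) tail that were tested were lower in Ptk6-/- controls (median -6.87), as were all 8 Paneth cell markers (median -1.004), with 9 and 6 at an unadjusted p under 0.05. Higher levels were found for 12 of 51 S phase genes (median -0.25), 2 of 15 replication-independent histone genes (median -0.33) and 1 of 5 erythrocyte markers (median -0.53), with 13, 6 and 3 at such a p, and the part of these lists in the members' values was not tested.

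In control females the 3 most abundant members had negative fitted values in Ptk6-/- mice, and of these the groups were apart for H1f2 only. The mean of H1f2 was 157 ± 5.83 CPM (SD, n = 3) in wild type and 53.99 ± 12.35 in Ptk6-/- mice, without overlap, a log2 fold change of -1.50 (SE 0.25, edgeR adjusted p 0.367). H2bc4 (-0.69, SE 0.42, edgeR adjusted p 0.551) and H2bc8 (-0.59, SE 0.39, adjusted p 0.591) overlapped between the groups through Ptk6-/- replicate 3. That library also had the highest enterocyte marker sum of all 24, 56569 CPM, against 22350 and 29020 CPM in the other 2 of its group and 46920 to 53440 CPM in the wild type controls, and the part of this in the result was not tested. H4c9 was at 4.18, 9.09 and 6.84 CPM in wild type and at 1.72, 2.27 and 3.49 in Ptk6-/- mice (-1.40, SE 0.40). H4c4 was at 0.26, 0.30 and 0.20 CPM and at 1.04, 0.81 and 1.13 in the same order (1.98, SE 0.49, edgeR adjusted p 0.367), the largest increase, and H2ac18 had the largest decrease (-2.46, SE 1.12, adjusted p 0.460).

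None of the 52 members tested was called by edgeR in control females (0.0158% of 19035 genes were called), and 5 had an unadjusted p under 0.05 (11.1% of genes). DESeq2 called 3 (1.36% of genes), H1f2, H3c14 and H4c4, with an adjusted p of 4.21e-05 for H1f2. Voom with quality weights called 8 (10.4% of genes). Without female Ptk6-/- control replicate 3, edgeR called 7 of 46 members against 9.65% of all genes, H2bc4, H1f2, H2bc8, H4c9 and H2ac18 lower and H3c14 and H4c4 higher, each in the same direction as with it, and H2bc4 and H2bc8 were then at -1.29 and -1.15. The median of all members was 0.26, and -0.23 without that library. Levels did not overlap for 4 members higher in Ptk6-/- mice (9.51% of genes) and 6 lower (9.37%). The share of Rn18s-rs5 was 0.161% to 0.215% in wild type and 0.171% to 2.76% in Ptk6-/- controls, and with it as a covariate H1f2 was at -1.74, H2bc4 at -0.27 and H2bc8 at -0.17. All 10 B cell follicle markers were higher in Ptk6-/- controls (median 2.42), as were all 7 other RNAs without a poly(A) tail that were tested (median 2.83), with 6 and 5 at an unadjusted p under 0.05, and the part of these in the members' values was not tested.

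Among succinate-treated males, 52 of 57 members had a higher fitted level in Ptk6-/- mice (median 2.47), and this rested on male Ptk6-/- succinate replicate 1, without which the median was 0.04. edgeR called 0 members and 0 of 18904 genes (0%), 16 members had an unadjusted p under 0.05 (2.72% of genes), DESeq2 called 2 (0.354%) and voom with quality weights 2 (9.52%). Without that library 2 of 51 members had such a p (4.82% of genes). The largest log2 fold change was for H3c6 (4.79, SE 1.58, and 1.01 without that library) and the smallest for H1f2 (-0.91, SE 0.45). H1f2 was at 70.8, 249 and 172 CPM in wild type and at 67.7, 92.8 and 93.5 in Ptk6-/- mice, and the groups overlapped. Rn18s-rs5 held 0.118% to 2.75% in wild type and 0.212% to 29.7% in Ptk6-/- mice. All 9 other RNAs without a poly(A) tail that were tested (median 4.47) and all 11 heart muscle markers (median 1.69) were higher in Ptk6-/- mice, and all 10 B cell follicle markers were lower (median -2.79), with 5, 6 and 10 at an unadjusted p under 0.05. The part of these in the members' values was not tested.

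In succinate-treated females, 49 of 54 members were lower in Ptk6-/- mice, with a median log2 fold change of -0.67 against -0.03 for all genes. No library with over 4.49% of Rn18s-rs5 was in this comparison. Levels did not overlap for 16 members that were lower, 29.6% against 4.34% of all genes, and for 1 that was higher (6.20% of genes). H1f5, a linker histone gene, was at 0.486, 0.454 and 0.978 CPM in wild type and at 0.108, 0.0394 and 0.0848 in Ptk6-/- mice (-2.99, SE 0.78, edgeR adjusted p 0.931), the largest decrease. H1f5 had 21, 14 and 38 counts in wild type and 6, 2 and 5 in Ptk6-/- mice. The count of 2 lay under the floor of 3 counts. H1f5 passed the count filter through the wild type group alone, which favoured a decrease. Apart from H3c14, the largest increase was 0.25 for H2bc23 (SE 0.60). H2bc4, H1f2 and H2bc8 were at -0.40 (SE 0.30), -0.02 (SE 0.35) and -0.22 (SE 0.33). With the share of Rn18s-rs5 as a covariate the sign turned for H2bc23 (-0.30), H1f2 (0.48) and H2bc8 (0.046). edgeR called 0 members (0% of 19180 genes), with 9 at an unadjusted p under 0.05 (4.52% of genes), DESeq2 called 1, H3c14 (0.141% of genes), and voom with quality weights called none. Rn18s-rs5 held 0.981% to 3.80% in wild type and 0.108% to 1.01% in Ptk6-/- mice. With it as a covariate the median was -0.08, and without the library that held heart muscle markers it was -0.58, with 5 of 49 members at an unadjusted p under 0.05 (2.08% of genes). Other lists had higher levels in Ptk6-/- mice in the same comparison, 45 of 51 S phase genes (median 0.34), 17 of 18 G2 and mitosis genes (median 0.51) and 8 of 8 crypt stem cell markers (median 0.53), with 5, 2 and 3 at an unadjusted p under 0.05. All 7 other RNAs without a poly(A) tail that were tested were lower (median -3.37), as were all 5 erythrocyte markers (median -1.20) and all 8 smooth muscle markers (median -0.37), and 1 of 8 heart muscle markers was higher (median -6.08). The part of these in the members' values was not tested.

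With succinate in wild type females, the abundant members and most of the others had fold changes of opposite sign. H2bc4, H1f2 and H2bc8 were lower with succinate, by -0.72 (SE 0.28), -0.81 (SE 0.29) and -0.91 (SE 0.30) on the log2 scale, and the levels of each did not overlap between the groups (edgeR adjusted p 0.617 for each). The other 50 members tested had a median of 0.57, and 10 of all 53 did not overlap and were higher, 18.9% against 6.41% of genes, while 5 were lower, 9.43% against 6.66%. H4c2 was at 0.153, 0.345 and 0.155 CPM in controls and at 1.27, 2.11 and 0.978 with succinate (2.73, SE 0.62, edgeR adjusted p 0.428), the largest increase. H2bc24 was the largest decrease (-0.94, SE 0.41). edgeR called 0 members (0% of 18872 genes), 7 had an unadjusted p under 0.05 (7.77% of genes), and DESeq2 called 1, H4c2 (1.37% of genes), and voom called none. Rn18s-rs5 held 0.161% to 0.215% in controls and 0.981% to 3.80% with succinate, and the groups did not overlap, so that its share and succinate cannot be told apart here. Without the library that held heart muscle markers, H2bc4, H1f2 and H2bc8 were at -0.65, -0.63 and -0.71, H4c2 was at 2.38, the median of all members was 0.27, and 3 of 51 had an unadjusted p under 0.05 (4.33% of genes). With the share of Rn18s-rs5 as a covariate that median was -0.54. All 10 B cell follicle markers were higher with succinate (median 2.07), as were all 7 other RNAs without a poly(A) tail that were tested (median 4.23), 7 of 8 smooth muscle markers (median 0.60) and 9 of 11 heart muscle markers (median 8.31), with 3, 6, 2 and 9 at an unadjusted p under 0.05. Of the 12 enterocyte markers 2 were higher (median -0.70), and the part of these lists in the members' values was not tested.

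In Ptk6-/- females few members reached even an unadjusted p under 0.05 with succinate. The median of the 49 tested was -0.46, from -1.73 for H4c4 (SE 0.72, edgeR adjusted p 0.460) to 2.02 for H2ac18 (SE 2.24, adjusted p 0.779). The sign of H2ac18 turned with the replicate number as a block (-3.32), with voom (-3.51), with the share of Rn18s-rs5 as a covariate (-0.27), on log2(FPKM + 0.1) (-0.23) and when its overlapping genes were summed (-0.58). edgeR called 0 members (0.0879% of 19334 genes were called), 1 had an unadjusted p under 0.05 (10.7% of genes), and neither DESeq2 nor voom called any. H1f2 was at 0.66 (SE 0.32), in the opposite direction to wild type females. The test of that difference, genotype by succinate in females, gave 1.49 (SE 0.43) with an edgeR adjusted p of 0.752. Rn18s-rs5 held 0.171% to 2.76% in controls and 0.108% to 1.01% with succinate. All 7 other RNAs without a poly(A) tail that were tested (median -1.98), all 10 B cell follicle markers (median -0.51) and all 5 erythrocyte markers (median -1.11) were lower with succinate, each list with 0 genes at an unadjusted p under 0.05. Higher with succinate were 6 of 8 Paneth cell markers (median 0.98), 5 of 8 crypt stem cell markers (median 0.48) and 3 of 12 enterocyte markers (median -0.79). In these 3, 3 and 2 genes had such a p. The part of all these lists in the members' values was not tested.

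In wild type males the median with succinate was -2.41 over 56 members, and 0.40 without male wild type control replicate 1, where 2 of 52 members had an unadjusted p under 0.05 (3.10% of genes). With all libraries edgeR called 0 members (0% of 19183 genes), 11 had an unadjusted p under 0.05 (4.07% of genes), DESeq2 called none, voom with quality weights called 2, H3c13 and H3c15 (7.81% of genes), and limma on log2(FPKM + 0.1) called 2 (0.909%). The extremes were H4c4 (-4.61, SE 1.78) and H3c13 (3.86, SE 1.23), which were at -0.15 and 3.59 without male wild type control replicate 1, and H4c4 was at 0.097 with voom. Without male wild type succinate replicate 1, edgeR called 1 of 56 members, H1f2, against 5.80% of all genes. Rn18s-rs5 held 0.206% to 51.2% in controls and 0.118% to 2.75% with succinate. All 9 other RNAs without a poly(A) tail that were tested were lower with succinate (median -5.01), and all 10 B cell follicle markers (median 1.48) and all 5 erythrocyte markers (median 0.93) were higher, with 3, 5 and 0 at an unadjusted p under 0.05. The part of these in the members' values was not tested.

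In Ptk6-/- males 54 of 55 members had a higher fitted level with succinate (median 2.84), and 31 had an unadjusted p under 0.05 (7.75% of genes). Without male Ptk6-/- succinate replicate 1 the median was 0.40 and 7 of 47 had such a p (10.97% of genes). Levels did not overlap for 14 members, all higher, 25.5% against 11.4% of genes (12.4% of genes were lower). edgeR called 0 members (0% of 18966 genes), DESeq2 8 (0.206% of genes) and voom none. The extremes were H2ac18 (6.38, SE 2.23, too low to be tested without that library) and H2bc21 (-0.04, SE 0.43, and 0.22 without that library), and H2bc4, H1f2 and H2bc8 were at 0.38, 0.16 and 0.08, and at -0.33, -0.51 and -0.61 on log2(FPKM + 1). Rn18s-rs5 held 0.168% to 0.383% in controls and 0.212% to 29.7% with succinate. All 9 other RNAs without a poly(A) tail that were tested (median 5.94), all 11 heart muscle markers (median 2.04) and all 5 erythrocyte markers (median 1.78) were higher with succinate, with 8, 4 and 4 at an unadjusted p under 0.05, and their part in the members' values was not tested.

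Over all 24 mice, with 1 mean fitted for each of the 8 groups, the genotype effect was largest relative to its error for H1f2, at -0.72 (SE 0.17, edgeR adjusted p 0.207). Its adjusted p was 0.0183 with DESeq2, 0.000471 with voom and 0.0165 with edgeR without male wild type succinate replicate 1, and in these fits its fold change stayed under the 2-fold that a call needed (-0.70, -0.63 and -0.81). H2bc4 (-0.51, SE 0.19), H2bc8 (-0.46, SE 0.19) and H4c9 (-0.82, SE 0.24) were also lower in Ptk6-/- mice, and the median of 59 members was -0.26. The extremes were H2ac18 (-1.94, SE 1.16) and H3c14 (1.52, SE 0.44). edgeR called 0 members (0.0184% of 21694 genes were called), 5 had an unadjusted p under 0.05 (13.4% of genes), DESeq2 called 1 (0.230% of genes) and voom with quality weights 2 (7.09%). H3c14 was called by both, and H4c9 by voom only (-1.02, voom adjusted p 0.000461). H1f2 kept its direction in each single-library omission, from -0.81 to -0.61. The median of the members was 0.43 without male wild type control replicate 1, -0.89 without male Ptk6-/- succinate replicate 1 and -0.17 without both, and edgeR called 1 member, H3c14, without male wild type succinate replicate 1 (0.413% of genes). All 10 other RNAs without a poly(A) tail (median -0.75), all 8 Paneth cell markers (median -0.36) and all 5 erythrocyte markers (median -0.43) were lower in Ptk6-/- mice, and 1 of 12 heart muscle markers was higher (median -2.01), with 0, 1, 0 and 7 at an unadjusted p under 0.05. Their part in the members' values was not tested.

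The succinate effect over 24 mice had a median of 0.18, with 43 of 59 members higher. edgeR called 0 members (0.728% of genes were called), 2 had an unadjusted p under 0.05 (16.1% of genes), DESeq2 called none and voom with quality weights 1, H4c2 (3.68% of genes). H3c13 (2.63, SE 1.00) and H2bc15 (-0.66, SE 0.48) were the extremes, and H2bc4, H1f2 and H2bc8 were at -0.08, 0.18 and -0.30. The sign turned for H2bc15 without male wild type control replicate 1 (0.11) and for H2bc4 with voom (0.078). The median was 1.01 without male wild type control replicate 1 and -0.38 without male Ptk6-/- succinate replicate 1, and 0.28 without both. All 12 heart muscle markers (median 2.05), all 10 B cell follicle markers (median 0.52), 7 of 8 smooth muscle markers (median 0.61) and 3 of 12 enterocyte markers (median -0.51) were higher with succinate, with 4, 2, 5 and 7 at an unadjusted p under 0.05, and their part in the members' values was not tested.

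The interaction of genotype and succinate shows how far the 2 libraries carry the members. In males 46 of 58 members had an unadjusted p under 0.05, 79.3% against 3.80% of genes, and the median was 5.30. The 2 libraries stand in the opposite corners of that design and add to each other in this contrast. Without both, the median was 0.19 and 2 of 57 members had such a p, 3.93% of genes, and with the share of Rn18s-rs5 as a covariate the median was -0.10. edgeR called 0 members (0% of 20340 genes), DESeq2 5 (0.295% of genes) and voom none. H4c6 had the largest value (10.7, SE 3.12, edgeR adjusted p 0.992, and 2.82 without both libraries) and H1f2 the smallest (-0.54, SE 0.52). All 10 other RNAs without a poly(A) tail (median 11.2) and all 11 heart muscle markers (median 1.80) had positive values, and all 10 B cell follicle markers had negative ones (median -2.01), with 10, 1 and 0 at such a p. In females the median was -1.02, 12 of 58 members had such a p (6.46% of genes), and edgeR (0% of 20531 genes), DESeq2 and voom called none. Without the library that held heart muscle markers the median was -0.93 and 7 of 57 members had such a p (4.19% of genes). The extremes there were H1f1 (-6.40, SE 1.897) and H1f2 (1.49, SE 0.43). H1f1 had 0, 0 and 2 counts in wild type control females, all under the floor of 3 counts, so that its fitted value is not a measured size. In females all 10 other RNAs without a poly(A) tail (median -6.43) and all 10 B cell follicle markers (median -2.59) had negative values, and 44 of 51 S phase genes (median 0.36) and 1 of 11 heart muscle markers (median -6.47) had positive ones, with 9, 0, 3 and 9 at such a p. The part of these lists in the members' values was not tested in either sex.

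**Figure D4:**
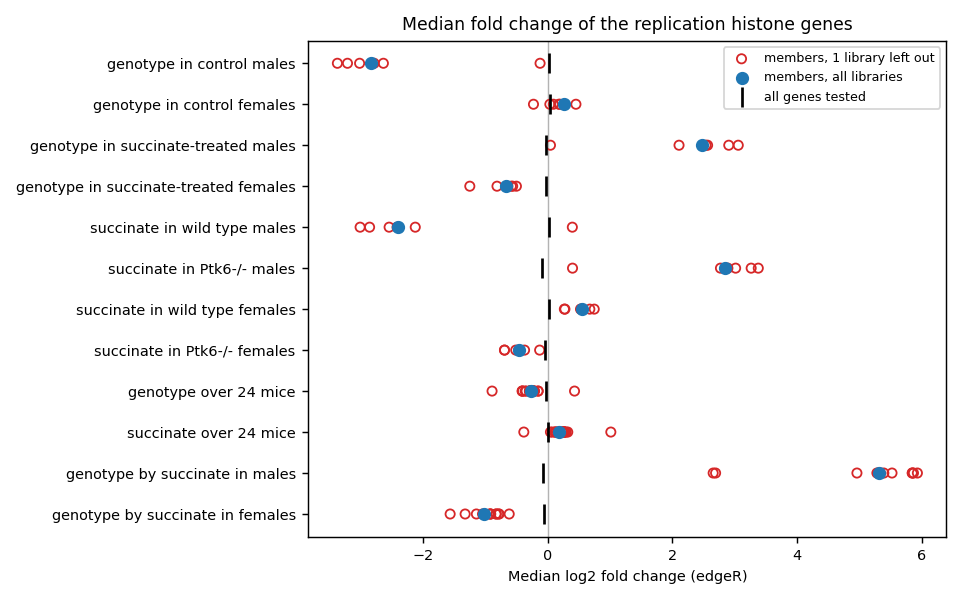
Median log2 fold change of the members tested (horizontal axis) in each of 12 comparisons, with all libraries (filled), with each library left out in turn (open circles) and for all genes tested (bars). In the comparisons of males the median goes from -2.82, 2.47, -2.41 and 2.84 to -0.12, 0.04, 0.40 and 0.40 when the library rich in Rn18s-rs5 is left out.

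H3c14 and H2ac18, both on chromosome 3, overlap another gene on their own strand. The same holds for H1f4 and H2bc6, which overlap each other and Gm11398, and for H2ac6, which overlaps a 5S_rRNA gene, and how reads were assigned between overlapping genes was not tested. H2ac18 lies at chr3:96152813-96153398 and H3c14 at chr3:96154001-96155825, and the gene Gm20634 at chr3:96152870-96155825 overlaps both on the same plus strand. H2ac18 had 0 counts in 7 libraries and up to 1071 in others, in every group with at least 1 library under 30 counts except wild type control females. H3c14 was at 1.03, 1.23 and 1.37 CPM in wild type control females and at 2.83, 5.27 and 4.04 in Ptk6-/- control females, without overlap (1.77, SE 0.35, edgeR adjusted p 0.367). In succinate-treated females it was at 2.03, 0.681 and 1.80 against 9.24, 9.61 and 4.31 CPM (2.34, SE 0.55, adjusted p 0.931). In males it was at 0.97 (SE 0.55) in controls and at 1.01 (SE 1.22) with succinate. When the counts of H2ac18, H3c14 and Gm20634 were summed, the genotype difference was -0.10 (SE 0.39) in control females, -0.73 (SE 0.31) in succinate-treated females, -0.84 (SE 0.56) in control males, 1.28 (SE 0.90) in succinate-treated males and -0.12 (SE 0.34) over 24 mice. The sum had the opposite sign to H3c14 in each of these except succinate-treated males, where both were positive.

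The other genes of the pathway were counted in 4 lists, in which edgeR called none in either direction for genotype or succinate over 24 mice. For genotype, 5 of 51 genes of DNA replication and S phase, 0 of 18 of G2 and mitosis, 5 of 27 of the processing and transcription of replication histone mRNA and 2 of 15 replication-independent histone genes had an unadjusted p under 0.05 (13.4% of all genes), with medians of -0.05, 0.14, 0.02 and -0.18. For succinate these counts were 6, 0, 1 and 3 (16.1% of all genes), with medians of 0.0044, -0.10, -0.04 and 0.11. Slbp was at -0.05 (SE 0.13) for genotype and 0.10 (SE 0.13) for succinate, Pcna at -0.22 (SE 0.14) and 0.0065 (SE 0.14), Mcm2 at 0.15 (SE 0.13) and -0.05 (SE 0.13), and Mki67 at 0.13 (SE 0.20) and 0.01 (SE 0.20). In control females, where H1f2 was at -1.50, 25 of 51 S phase genes were higher in Ptk6-/- mice (median -0.01) and 15 of 18 G2 and mitosis genes (median 0.39), with 3 and 1 at an unadjusted p under 0.05 (11.1% of genes). Slbp was at -0.32 (SE 0.21) there, Pcna at -0.41 (SE 0.22), Mcm2 at 0.25 (SE 0.25) and Mki67 at 0.30 (SE 0.45).

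The level of H2bc4, H1f2 and H2bc8 had its highest positive coefficients with lists other than the cell cycle lists. Over 24 libraries their sum had a Spearman coefficient of 0.73 with the replication-independent histone genes, 0.71 with the erythrocyte markers and 0.65 with the enterocyte markers. Over the 22 libraries these were 0.83, 0.83 and 0.78. Over 24 and 22 libraries the coefficient was -0.48 and -0.50 with G2 and mitosis, and -0.41 and -0.50 with crypt stem cell markers. With pancreas and heart muscle markers it was 0.56 and 0.43 over 24 libraries. The 5 genes outside the family with a mean of at least 1 FPKM whose share of counts was most like the members' summed share over the 24 libraries, among 11619 genes, were Nkg7 and Hbb-bt (0.72 each), Isg15 (0.71), Gm5075 (0.70) and Amn (0.70). The 24 points share library depth and composition, and these values are given as a description.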

How the data were processed

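RNA of 24 distal jejunum samples, 3 mice in each of 8 groups, was sequenced by the authors after oligo(dT) selection. The count values were deposited as whole numbers per gene without normalization, and the program that made them is not given in the sources used here. The FPKM values were made by the authors with StringTie and ballgown after HISAT2 mapping and were deposited beside the same counts. GRCm39 is the build in the submitters' processing notes.

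Counts were analysed with edgeR 4.0.16 (quasi-likelihood test, TMM) in R 4.3.3, over every gene that reached 10 counts in 3 or more libraries of a comparison, with Benjamini-Hochberg adjustment over all of them and a call at an adjusted p under 0.05 and a fold change of at least 2. Counts at or under 3 were taken as the floor. Alternatives were DESeq2 1.42.0, limma 3.58.1 (voom, and log2 FPKM with 1 or 0.1 added, where the mean FPKM was 0.5 or more), other filters and size factors, the replicate block, Rn18s-rs5 removed or as a covariate, 1 fit of all 24 libraries and each library left out. The test was run on simulated data first. The study's methods name DESeq2. The members, lists and comparisons were chosen with earlier results of these data known. Named in full were the 3 members with the highest mean FPKM of each class, any called by edgeR, and the extremes of each comparison. Members called only by DESeq2, voom or limma on FPKM were in part given as counts. Of the lists, Slbp, Mki67, Pcna, Mcm2 and the 4 genes with the highest mean FPKM could be named. After the values were seen, H2bc4, H1f2 and H2bc8 were set apart from the other 56, the overlapping genes at H3c14 were summed and both libraries rich in Rn18s-rs5 were left out. Library totals of 8080321 to 52824743 counts limit the precision of low members most.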

Additional observations from a re-analysis of the deposited data

Results flagged for a closer look

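Of the members, 4 moved in opposite directions in the 2 sexes without overlap between the groups; these differences were not tested, and values are log2 ratios of mean CPM. With succinate in Ptk6-/- mice, H2ac20 was at 5.85 in males and -0.928 in females, H2bc11 at 1.47 and -0.805, H2bc3 at 4.88 and -1.65, and H4c14 at 3.85 and -1.56. For genotype under succinate, H2bc3 was at 4.93 in males and -2.15 in females. For succinate in Ptk6-/- mice these 4 are 6.78% of the 59 members, against 0.848% of 21694 genes that moved oppositely in the same way, and for genotype under succinate 1.69% against 0.613%. The male values include the library with 29.7% of Rn18s-rs5. Without it they were 1.47 for H2ac20, 0.54 for H2bc11, 2.60 for H2bc3 and 1.52 for H4c14 with succinate, and 2.65 for H2bc3 by genotype, and the levels of these genes in the 22 libraries with less were under 3 CPM.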

How the results depend on the processing

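The count of members called was 0 in all 12 comparisons with edgeR, and it stayed 0 with DESeq2's size factors, both other filters, no fold change threshold, Rn18s-rs5 removed or as a covariate, all 24 libraries in 1 fit and limma on log2(FPKM + 1). With the replicate number as a block it was 0 in all 12; the numbers do not pair the mice (median correlation of same-numbered deviations -0.0251, other numbers 0.0114). DESeq2 called 6 members for genotype in control males, 3 in control females, 2 in succinate-treated males, 1 in succinate-treated females and 1 over 24 mice, 8 for succinate in Ptk6-/- males, 1 in wild type females, and 5 for the interaction in males. Voom with quality weights called 1, 8 and 2 for genotype in control males, control females and succinate-treated males, 2 for succinate in wild type males, and 2 and 1 for genotype and succinate over 24 mice. Limma on log2(FPKM + 0.1) called 11 for genotype in control males and 2 for succinate in wild type males. With each library left out the counts were 0 to 7 in control females, 0 to 1 for genotype in control males, for genotype over 24 mice and for succinate in wild type males, and 0 to 0 elsewhere; where members were called, 9.65%, 1.10%, 0.413% and 5.80% of all genes were called in the same order.

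The coefficient of 0.27 between the members' percent and that of Rn18s-rs5 was 0.38 with summed FPKM, 0.083 for members with 10 counts in every library, 0.14 over 22 libraries, 0.78 within males, -0.15 within females, 0.084 for H2bc4, H1f2 and H2bc8 and 0.71 for the other 56 members, and 0.17 to 0.37 with each library left out.

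The named results with a reversed direction were these, and the cause was not tested. On log2(FPKM + 1) and log2(FPKM + 0.1), genotype in control males was 0.029 and 0.031 for H1f2, 0.040 and 0.041 for H2bc4, and 0.0089 and 0.0097 for H2bc8, and succinate in Ptk6-/- males was -0.51 and -0.54 for H1f2, -0.33 and -0.34 for H2bc4, and -0.61 and -0.67 for H2bc8. With voom, H4c4 was 0.097 for succinate in wild type males and H2bc4 0.078 for succinate over 24 mice. For succinate in Ptk6-/- males, H2bc21 was 0.49 with the Rn18s-rs5 covariate and 0.27 with voom. For succinate in Ptk6-/- females, H2ac18 was -3.32 with the replicate block, -0.27 with the covariate, -0.23 on log2(FPKM + 0.1), -3.51 with voom and -0.58 when overlapping genes were summed. The summed locus gave -0.84, -0.10, -0.73 and -0.12 in place of H3c14 for genotype in control males, control females, succinate-treated females and over 24 mice. For genotype in succinate-treated females, H1f2 was 0.0059 with no filter, 0.48 with the covariate, 0.18 on both log2 FPKM scales and 0.076 with voom, H2bc8 was 0.046 with the covariate and 0.014 and 0.017 on log2(FPKM + 1) and log2(FPKM + 0.1), and H2bc23 was -0.30 with the covariate. With each library left out, these ranged from -0.21 to 0.25 for H1f2, from -0.42 to 0.067 for H2bc8 and from -0.18 to 0.64 for H2bc23, succinate in Ptk6-/- males ranged from -0.023 to 0.33 for H1f2, from -0.48 to 0.22 for H2bc21 and from -0.041 to 0.22 for H2bc8, and succinate over 24 mice from -1.02 to 0.11 for H2bc15 and from -0.19 to 0.072 for H2bc4.

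With 3 mice a group, members near the floor of 3 counts carry wide errors, and a p that misses the threshold does not show that levels did not differ.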
